A study of Mus musculus with 20 samples.

Results

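The muscle atrophy genes described here are 10 genes that are read in skeletal muscle as markers of wasting: Fbxo32, Trim63, Foxo1, Foxo3, Mstn, Bnip3, Cblb, Gadd45a, Ddit4, and Mt2. They were chosen by name, with earlier results of these data known, and were looked up in the gene column of the scanner output. They are covered by 16 of the 55681 probes on the array. All 16 probes entered the tests, as did 36930 probes in all. The study injected fibers into the pleural cavity of mice and measured RNA in the diaphragm, the muscle that forms the floor of that cavity, to compare long with short fibers and asbestos with carbon nanotubes. The 20 mice were female C57Bl/6 animals, 8 weeks old at injection, and each received 100 µL of 0.5% bovine serum albumin in saline. The control group received this vehicle alone, SFA and LFA received 25 µg of short or long fibers of amosite, an asbestos mineral, and NTS and NTL received 5 µg of short or long carbon nanotubes. Each group held 4 mice, and tissue was taken 12 weeks later. Each array was taken as 1 mouse, which the sample labels do not state. Asbestos and nanotubes differed in dose, so material and dose cannot be told apart.

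Muscle loses mass when protein breakdown outpaces synthesis. The 2 E3 ubiquitin ligases that define the atrophy program, atrogin-1 (Fbxo32) and MuRF1 (Trim63), mark muscle proteins for the proteasome, and the FoxO transcription factors, held out of the nucleus by insulin and AKT signaling, switch both on during fasting, disuse, and glucocorticoid excess. Myostatin (Mstn) is a secreted inhibitor of muscle growth, BNIP3 drives the removal of mitochondria by autophagy, CBL-B is a ligase that acts on the insulin receptor substrate, and GADD45A, REDD1 (Ddit4), and metallothionein-2 (Mt2) belong to the stress responses that accompany wasting.

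Trim63 was the gene on which the results turn, and it was read by 2 oligonucleotide probes. Probe A_52_P517224 lies at chr4:133885025-133885084 (NCBI37, plus strand), at position 1366 of the transcript, and is called the 3' probe below. Probe A_55_P2106745 lies at chr4:133881557-133881616, at position 1016 of the same transcript, and is called the 5' probe. The first 30 bases of each are shown because the 2 probes of the gene did not behave alike.
Trim63 3' probe: ccaaaacgtcacaggacacttttctacgtt
Trim63 5' probe: atggactactttactctggacttagaacac

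The 250 bases before the annotated start are shown for the 3 members with every NTL array below every control array (Trim63, Foxo1, and Bnip3) and for Mt2, a member with higher means in the long-fiber groups. They come from RefSeq (GRCm38.p6), which gave such a window for 9 of the 10 members, and are written on the strand of the gene. Capitals mark matches on either strand to the FoxO core GTAAACA, the metal response element cores TGCACNC and TGCGCNC, the hypoxia response cores ACGTG and GCGTG, and the glucocorticoid hexamer AGAACA, the last of which was added after the sequences were seen.
Trim63, chr4:134314870-134315119, plus strand: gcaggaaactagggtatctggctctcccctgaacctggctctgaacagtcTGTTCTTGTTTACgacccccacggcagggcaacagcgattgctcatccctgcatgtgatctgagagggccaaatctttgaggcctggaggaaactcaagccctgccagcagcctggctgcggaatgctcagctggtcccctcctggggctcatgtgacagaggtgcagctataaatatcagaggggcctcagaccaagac
Foxo1, chr3:52268087-52268336, plus strand: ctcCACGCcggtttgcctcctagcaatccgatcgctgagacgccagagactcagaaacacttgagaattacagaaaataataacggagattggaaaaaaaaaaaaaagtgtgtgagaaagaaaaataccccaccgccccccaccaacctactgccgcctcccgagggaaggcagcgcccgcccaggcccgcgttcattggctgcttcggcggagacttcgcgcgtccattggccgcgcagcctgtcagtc
Bnip3, chr7:138909507-138909756, minus strand: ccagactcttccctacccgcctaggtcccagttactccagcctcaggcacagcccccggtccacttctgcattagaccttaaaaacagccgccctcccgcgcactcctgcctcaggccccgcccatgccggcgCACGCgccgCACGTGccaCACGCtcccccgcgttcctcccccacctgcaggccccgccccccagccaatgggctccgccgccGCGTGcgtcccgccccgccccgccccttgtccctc
Mt2, chr8:94172368-94172617, plus strand: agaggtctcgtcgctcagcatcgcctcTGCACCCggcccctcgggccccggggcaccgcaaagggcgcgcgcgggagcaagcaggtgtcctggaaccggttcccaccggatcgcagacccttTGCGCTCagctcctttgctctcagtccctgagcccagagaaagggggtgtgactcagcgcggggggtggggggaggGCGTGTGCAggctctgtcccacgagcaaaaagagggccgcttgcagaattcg

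Trim63 was the only one of the 9 members with a window to hold the FoxO core, at bases -194 to -188 from the start, directly after a glucocorticoid hexamer at -200 to -195. Of 32851 windows of the same length, 3.17% held the FoxO core and 16.1% the hexamer. An exact match to the whole palindromic glucocorticoid response element was in none of the 9 and in 0.00913% of all windows. In Trim63, however, the bases that end with the marked hexamer differ from the whole element in only 1 letter. Near matches were not searched for, so their share among all windows is not known. Bnip3 held 5 matches to the hypoxia cores, 2 of them overlapping on opposite strands, a motif that 38.6% of all windows held at least once. Mt2 held 3 metal response element cores, one of which overlapped a hypoxia core, and 21.4% of windows held at least 1. A match is a run of letters and not a shown binding site.

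The tissue was checked against marker genes. All 16 skeletal muscle markers (among them Acta1, Ckm, and the myosin heavy chains) were well above background on all arrays, as were all 12 macrophage and 7 fibroblast markers. Several marker sets also moved with the groups. Of the 9 lymphocyte, 8 mesothelial, and 6 endothelial markers, 0 were called against control in LFA or NTL. The skeletal muscle score, the mean of the 16 markers relative to the control mean on the log2 scale, lay between -0.15 and 0.14 in control, -0.63 and -0.05 in SFA, -1.36 and -0.67 in LFA, -0.93 and 0.50 in NTS, and -1.40 and -1.13 in NTL. All 16 markers had a mean below control in LFA and in NTL, and 1 and 6 of them passed the test there. The macrophage score was at most 0.14 in control, whereas its range was 1.68 to 2.5 in LFA and 2.07 to 2.41 in NTL, with 10 of the 12 markers called higher in both. The fibroblast score reached 0.16 to 1.26 in LFA and 0.65 to 1.45 in NTL, against -0.12 to 0.24 in control, while the adipocyte score had ranges of -1.41 to -0.11 in LFA, -1.48 to -0.69 in NTL, and -0.34 to 0.15 in control. In bulk tissue, fewer cells of a type and less RNA per cell cannot be told apart.

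Several arrays stood apart. A 5' to 3' index, the mean log2 difference of the most 5' minus the most 3' probe over 1132 transcripts with probes at least 1000 bases apart, was lowest on SFA 1 (-1.39), LFA 3 (-1.32), NTL 2 (-1.28), NTS 4 (-1.19), and control 2 (-1.17), and ran from -1.08 to -0.36 on the others. The score of 10 liver markers ran from -3.03 to 7.95 over the arrays and was above 6 on SFA 2, LFA 1, LFA 3, NTS 3, and NTS 4. Each of the 3 slides held arrays of control, LFA, and at least 1 other group. Their part in the results was not tested beyond the alternatives given below.

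Levels are given as log2 signal relative to the 75th percentile of the array, so 0 is the level of that percentile and levels of different probes are not comparable. A gene was called when limma's test across all probes gave a Benjamini-Hochberg adjusted p under 0.05 and the log2 change was at least 1, and a gene with several probes is represented by its brightest one. Of the 10 members, 1 was called lower in LFA and 1 in NTL, the same gene in both, Trim63, and 0 were called higher. The background was 3.68% of tested probes called in LFA (2.29% higher and 1.39% lower) and 6.4% in NTL (3.66% higher and 2.73% lower). In SFA and NTS 0 members were called, as were 0% of all probes, although 3 of the 10 had an unadjusted p under 0.05 in each, where the background was 2.28% and 3.41% of probes. In LFA and NTL 4 of 10 members had such a p, against 22.8% of probes in both. The median change of the 10 members was -0.40 in LFA and -0.65 in NTL, and that of all tested probes was -0.229 and -0.227. The median was 0.13 in SFA and -0.19 in NTS, against -0.0871 and -0.0551 for all probes. The 4 comparisons share the control arrays.

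**Figure D1:**
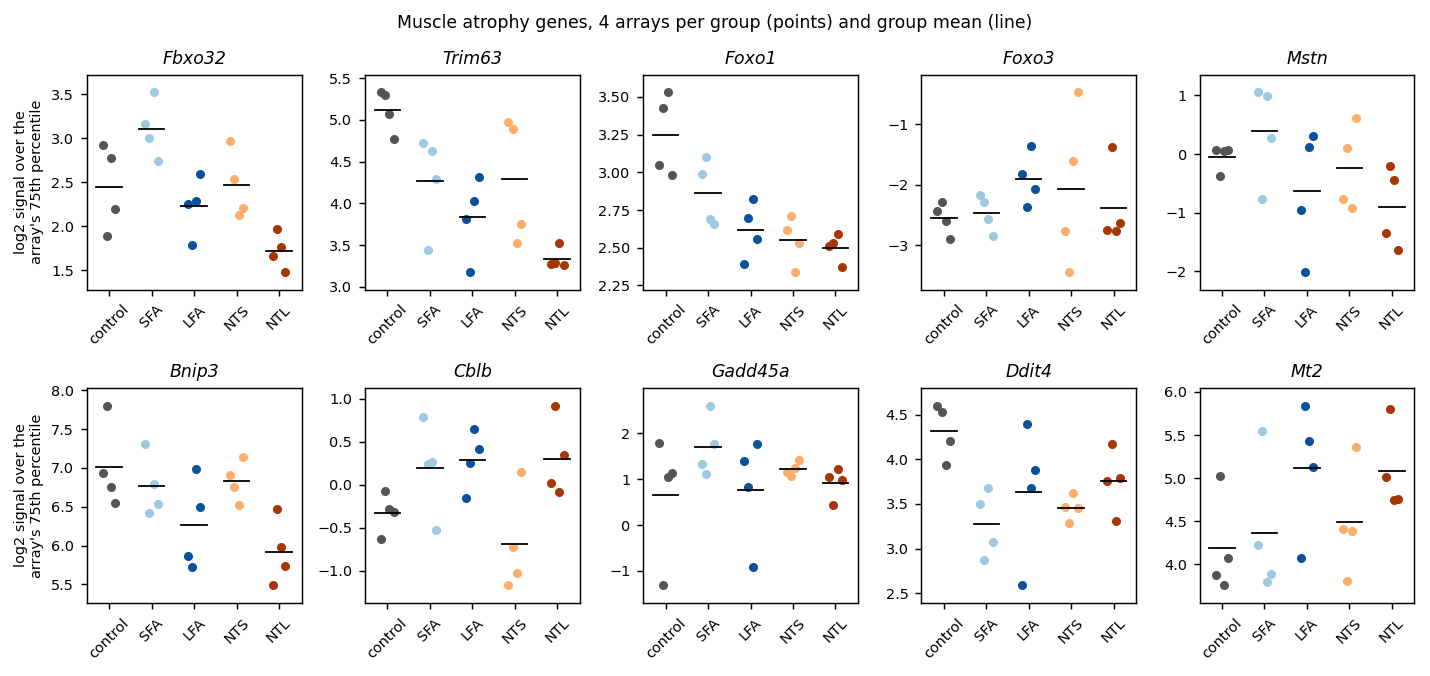
Log2 signal relative to the array's 75th percentile (y axis) of the brightest probe of each of the 10 genes in control, SFA, LFA, NTS, and NTL, with 1 point per array and a line at the group mean. The 4 NTL arrays of Trim63 lie between 3.26 and 3.52, below the 4 control arrays at 4.77 to 5.33.

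**Figure D2:**
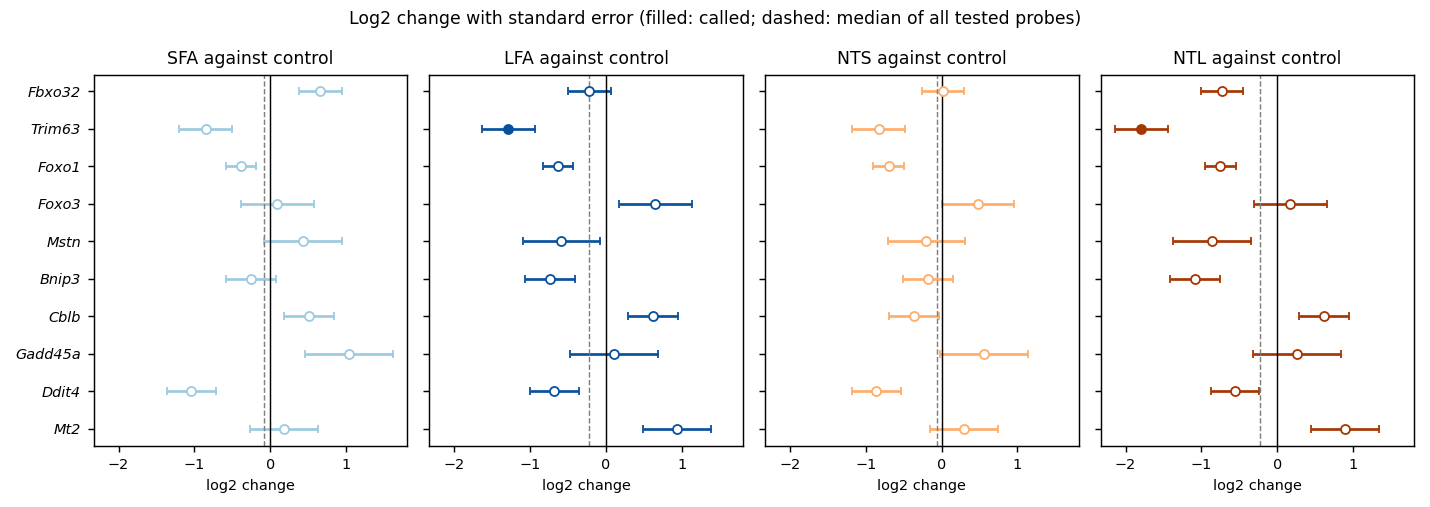
Log2 change against control (x axis) of the brightest probe of each gene in SFA, LFA, NTS, and NTL, with the standard error of the fit, filled where called. The dashed line is the median change of all tested probes, and Trim63 in LFA (-1.29) and NTL (-1.79) are the filled points.

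Trim63, which encodes the ligase that targets sarcomere proteins, fell in both long-fiber groups. Its 3' probe read 5.33, 5.30, 5.07, and 4.77 in control mice 1 to 4. The values were 3.81, 3.18, 4.03, and 4.32 in LFA and 3.27, 3.28, 3.52, and 3.26 in NTL. Every array of both groups lay below every control array, and the NTL mice hardly differed from each other. The log2 change was -1.29 ± 0.35 (SE) in LFA, or 2.44-fold lower, with an adjusted p of 0.0487. It was -1.79 ± 0.35 in NTL, or 3.46-fold lower, with an adjusted p of 0.00503. Among all tested probes, 10.3% were lower on every array in LFA and 12.7% in NTL, while 5.03% and 6.61% were higher on every array. Trim63 was also the 1 member to pass the F test over the 4 fiber groups with a change of 2-fold or more (adjusted p = 0.0298), which 5.63% of tested probes passed.

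The short fibers gave Trim63 values in between. SFA read 4.73, 3.44, 4.63, and 4.29, all below control, and NTS read 4.98, 4.89, 3.53, and 3.75, where mice 1 and 2 overlapped control and mice 3 and 4 did not. NTS 3 and 4 were the NTS arrays of slide 1 and had liver scores of 7.86 and 7.95. The change in NTS was -1.13 within slide 1 and -0.38 within slide 2. The skeletal muscle scores of NTS 3 and 4 were -0.59 and -0.93, against -0.01 and 0.50 for NTS 1 and 2. In SFA the lowest muscle score (-0.63) was that of SFA 1, the highest SFA array for Trim63. The part of these scores in the short-fiber values was not tested. SFA 2, the lowest SFA array for Trim63, had a liver score of 6.28, whereas LFA 2, the lowest LFA array, had one of -2.33. The change was -0.85 ± 0.35 in SFA (adjusted p = 0.999) and -0.83 ± 0.35 in NTS (adjusted p = 1), neither of which passed the limma test. Of all tested probes 0.845% were lower than control on every SFA array and 0.574% higher. Every array of the 4 fiber groups lay below every control array for 0.0785% of probes, and above for 0.00812%. Trim63 was not among these, since NTS 1 and 2 overlapped control.

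The call in LFA was narrow. With the slide as a block its change was -1.19 with an adjusted p of 0.0925, and within slides 1, 2, and 3 it was -0.60, -1.51, and -1.90. In NTL the blocked change was -1.80 (adjusted p = 0.0166), and the changes within slides 2 and 3 were -2.04 and -1.72.

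The 5' probe of Trim63 gave a wider spread. In control it read 3.53, 0.72, 3.35, and 3.21, with mouse 2 far below the rest, and its means were 2.70 in control, 1.55 in SFA, 0.98 in LFA, 2.13 in NTS, and 1.17 in NTL. Its changes were -1.72 ± 0.80 in LFA and -1.53 ± 0.80 in NTL, in the same direction as the 3' probe, and neither passed (adjusted p = 0.208 and 0.265 in the limma fit). The difference between the 2 probes followed the 5' to 3' index of the array. On the 5 arrays with the lowest index the 5' probe lay 3.48 to 4.59 log2 units below the 3' probe, whereas on the other 15 it lay 1.49 to 2.85 below. With the index as a covariate the change of the 3' probe was -1.35 in LFA (adjusted p = 0.0309) and -1.82 in NTL (adjusted p = 0.00315).

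**Figure D3:**
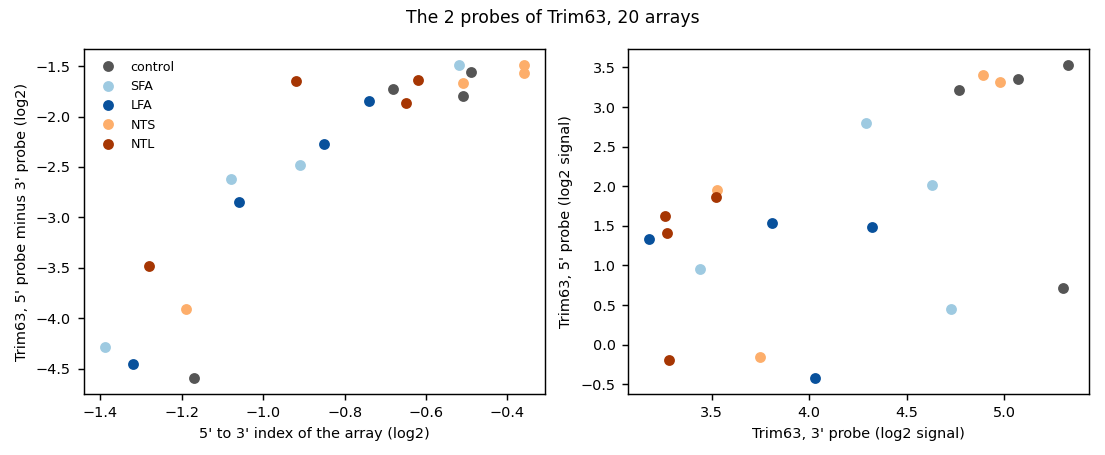
Left, the 5' probe minus the 3' probe of Trim63 (log2, y axis) against the 5' to 3' index of each of the 20 arrays (log2, x axis). Right, the log2 signal of the 5' probe against that of the 3' probe. The 5 arrays with an index of -1.17 or less have the most negative differences, from -4.59 to -3.48.

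Fbxo32, the other defining ligase of atrophy, was measured by 10 spots of 1 probe whose SD on an array was at most 0.0628. It read 2.92, 1.89, 2.77, and 2.19 in control, 3.16, 3, 3.52, and 2.74 in SFA, and 2.25, 1.78, 2.29, and 2.59 in LFA. In NTS it read 2.97, 2.54, 2.13, and 2.21, and in NTL 1.66, 1.97, 1.76, and 1.48. SFA was the highest group and NTL the lowest, and both overlapped control. The change was 0.66 ± 0.28 in SFA (adjusted p = 0.999) and -0.73 ± 0.28 in NTL (adjusted p = 0.12). It was -0.22 ± 0.28 in LFA, with a 95% interval of -0.80 to 0.36, and 0.02 ± 0.28 in NTS. The F test over the fiber groups gave an adjusted p of 0.0368, but no group reached a 2-fold change, so the gene was not called by limma. Within slides 2 and 3 the NTL change was -0.75 and -1.03.

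Cblb had higher means in 3 fiber groups and a lower mean in NTS. Its brighter probe read -0.63, -0.07, -0.28, and -0.32 in control, 0.79, 0.24, 0.26, and -0.53 in SFA, and -0.15, 0.25, 0.65, and 0.42 in LFA. NTS read -1.17, -0.72, -1.03, and 0.15, and NTL read 0.02, 0.92, -0.09, and 0.35. All 4 groups overlapped control, with NTS 4 apart from the other NTS mice. The change was 0.62 ± 0.33 in both LFA and NTL (adjusted p = 0.271 and 0.268), 0.51 ± 0.33 in SFA, and -0.37 ± 0.33 in NTS, and none passed in limma. The dimmer Cblb probe was well above background on 16 arrays, and its means were below control in all 4 groups, by -0.74 ± 0.39 in LFA, so the 2 probes did not give the same sign in SFA, LFA, and NTL.

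Foxo1, which encodes a FoxO factor that drives both ligases, had lower means in all fiber groups. It read 3.05, 3.43, 3.53, and 2.98 in control, 2.39, 2.70, 2.82, and 2.56 in LFA, and 2.51, 2.53, 2.59, and 2.37 in NTL. NTS read 2.62, 2.71, 2.34, and 2.53, and SFA 2.99, 3.10, 2.69, and 2.66. Every LFA, NTS, and NTL array lay below every control array, and SFA overlapped control. The change in NTL was -0.75 ± 0.20 with an adjusted p of 0.0278, which passed the p threshold of the limma test but not the 2-fold limit. The change was -0.63 ± 0.20 in LFA (adjusted p = 0.0771), -0.70 ± 0.20 in NTS (adjusted p = 1), and -0.39 ± 0.20 in SFA. By an exact two-sided permutation test of this gene alone, p was 0.0286 in LFA, NTS, and NTL. That is the smallest value that 4 against 4 arrays allow, and it was not adjusted for the other members. In NTS 0.902% of tested probes were lower than control on every array and 0.617% higher. The second Foxo1 probe gave -0.58 ± 0.22 in NTL, -0.64 ± 0.22 in NTS, and -0.40 ± 0.22 in LFA. With the slide as a block, the change of the first probe in NTL was -0.76 (adjusted p = 0.0653).

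Foxo3 was not detectably different from control in any group. Its brighter probe ran from -2.89 to -2.29 in control, -2.84 to -2.17 in SFA, and -2.37 to -1.35 in LFA. It ran from -3.44 to -0.47 in NTS, where mouse 4 was the highest of all arrays, and from -2.77 to -1.38 in NTL. The changes lay between 0.09 ± 0.48 in SFA and 0.65 ± 0.48 in LFA, and the 95% interval in LFA was -0.36 to 1.66. The dimmer probe, well above background on 17 arrays, had changes of -0.36 to -0.04 with an SE of 0.36, opposite in sign to the brighter probe in all 4 fiber groups. The 2 probes are annotated to different transcript records, and only the record of the dimmer one is from RefSeq. They start at 41967288 (brighter) and 41905610 (dimmer) of chromosome 10 (NCBI37), so they may not read the same RNA.

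Bnip3, the mitophagy gene among the FoxO targets, was lowest in NTL. Its brightest probe read 6.93, 7.80, 6.75, and 6.55 in control and 5.49, 6.47, 5.98, and 5.73 in NTL, where every array lay below control. It read 5.87, 5.72, 6.99, and 6.50 in LFA, which overlapped control, and ran from 6.42 to 7.31 in SFA and 6.52 to 7.14 in NTS. The change in NTL was -1.09 ± 0.33, or 2.13-fold lower, with an adjusted p of 0.0537, just outside the call, and in LFA it was -0.74 ± 0.33 (adjusted p = 0.196). The 3 Bnip3 probes lie between positions 146082536 and 146082819 of chromosome 7 (NCBI37), and one of the others, A_66_P120736, fell in NTL by 1.21 ± 0.33 on the log2 scale (adjusted p = 0.0328 in limma). The remaining probe had a change of -0.91 ± 0.39 (adjusted p = 0.168). In SFA and NTS the changes were -0.25 ± 0.33 and -0.18 ± 0.33. With the 5' to 3' index as a covariate, which was chosen after the data were seen, the change of the brightest probe was -1.28 in NTL (adjusted p = 0.000823) and -1.07 in LFA (adjusted p = 0.00812). That covariate also raised the calls over all tested probes, from 2362 to 4118 in NTL and from 1360 to 2588 in LFA. Within slides 1, 2, and 3 the LFA change was 0.19, -1.5, and -1.03.

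Mstn, the myostatin gene, overlapped control in all groups. It read 0.07, -0.37, 0.05, and 0.07 in control, 1.05, -0.76, 0.99, and 0.27 in SFA, and -0.96, -2.01, 0.12, and 0.31 in LFA. NTL read -1.34, -0.20, -0.45, and -1.63, and NTS ran from -0.92 to 0.61. The control mice were close together and every fiber group was spread over more than 1 log2 unit. The changes were 0.43 ± 0.51 in SFA, -0.59 ± 0.51 in LFA, -0.20 ± 0.51 in NTS, and -0.86 ± 0.51 in NTL (adjusted p = 0.339), and none passed in limma.

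Ddit4, whose product REDD1 restrains mTORC1, had its lowest group means with short fibers, although LFA 1 read lower than any other array. It read 4.60, 4.53, 3.94, and 4.21 in control, 3.5, 2.87, 3.68, and 3.07 in SFA, and 3.46, 3.29, 3.62, and 3.45 in NTS. Every SFA and NTS array lay below every control array. LFA read 2.59, 4.40, 3.68, and 3.88 and NTL 3.76, 4.17, 3.31, and 3.79, both overlapping control. The change was -1.04 ± 0.32 in SFA (adjusted p = 0.999), -0.86 ± 0.32 in NTS (adjusted p = 1), -0.68 ± 0.32 in LFA (adjusted p = 0.213), and -0.56 ± 0.32 in NTL (adjusted p = 0.313), so none was called by limma. The exact two-sided permutation p of this gene alone, not adjusted for the other members, was 0.0286 in SFA and NTS, 0.114 in LFA, and 0.0571 in NTL. The value of 0.0286 is the smallest that 4 against 4 arrays allow. Among all tested probes, 0.845% in SFA and 0.902% in NTS were lower than control on every array, and 0.574% and 0.617% were higher. Within slides 2 and 3 the SFA change was -1.38 and -0.56, and within slides 1 and 2 the NTS change was -0.68 and -1.19.

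Mt2, a zinc-binding metallothionein that responds to metals, glucocorticoids, and cytokines, had its highest means in the long-fiber groups. It read 3.88, 5.03, 3.76, and 4.07 in control, 4.07, 5.84, 5.43, and 5.13 in LFA, and 5.01, 5.80, 4.75, and 4.76 in NTL. Control 2 overlapped both groups, and SFA and NTS ran from 3.80 to 5.55 and from 3.81 to 5.36. The change was 0.94 ± 0.45 in LFA (adjusted p = 0.229) and 0.89 ± 0.45 in NTL (adjusted p = 0.252), and neither passed in limma. Within slides 1, 2, and 3 the LFA change was 1.21, -0.38, and 2.08. Mt1, the neighboring metallothionein gene, had changes of -0.26 ± 0.30 in LFA and -0.48 ± 0.30 in NTL, opposite in sign to those of Mt2.

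Gadd45a, a stress gene of denervated and starved muscle, had wide spreads. It read 1.79, -1.31, 1.04, and 1.14 in control and 1.40, 0.82, -0.91, and 1.77 in LFA, so that control 2 and LFA 3 lay far below their groups. Control 2, LFA 3, and NTL 2, each the lowest of its group, were among the 5 arrays with the lowest 5' to 3' index. Of the same 5 arrays, NTS 4 (1.41) was the highest of its group, and SFA 1 (1.32) was not the lowest of its group. With the index as a covariate, an alternative given below, no change of Gadd45a was called. The part of the index was not tested further for this gene. SFA ran from 1.12 to 2.60, NTS from 1.07 to 1.41, and NTL from 0.43 to 1.23. The change was 1.04 ± 0.58 in SFA (adjusted p = 0.999), 0.56 ± 0.58 in NTS, 0.26 ± 0.58 in NTL, and 0.11 ± 0.58 in LFA, with a 95% interval in LFA of -1.12 to 1.33, and none passed in limma. Without control 2 the changes were 0.38 in SFA, -0.10 in NTS, -0.40 in NTL, and -0.55 in LFA.

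The members that fell or were lowest in the long-fiber groups were set beside the skeletal muscle score, because that score was lower on the same arrays. When each array was set relative to its muscle score, a choice made after the data were seen, the median change of all tested probes became 0.81 in LFA and 1.08 in NTL. On this scale the change of Trim63 was -0.25 ± 0.31 in LFA (adjusted p = 0.562) and -0.48 ± 0.31 in NTL (adjusted p = 0.193), so the call was lost in both groups. Bnip3 changed by 0.30 ± 0.40 and 0.22 ± 0.40, Foxo1 by 0.41 ± 0.31 and 0.56 ± 0.31, and Fbxo32 by 0.82 ± 0.34 and 0.58 ± 0.34, and none of these passed. Cblb (1.66 in LFA and 1.94 in NTL) and Mt2 (1.98 and 2.20) passed in both groups and Gadd45a (1.57) in NTL, in a comparison where 22.1% of all probes in LFA and 41% in NTL were called higher, and 0.0379% and 0.114% lower. Of the 10 members, Trim63 alone stayed below control on this scale in both groups. The part of the muscle score in the changes of Trim63 was not tested beyond this.

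**Figure D4:**
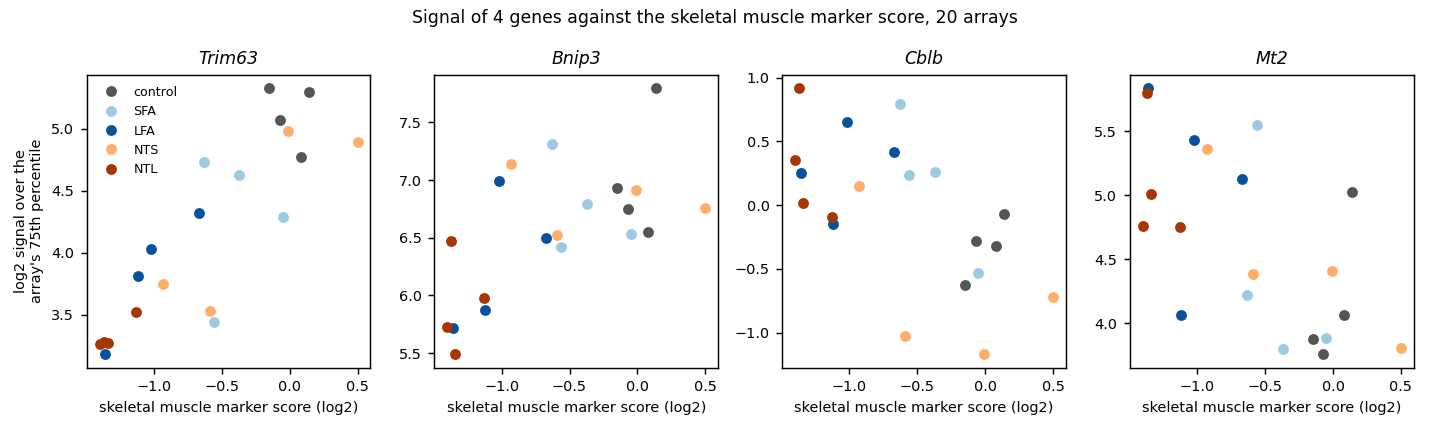
Log2 signal relative to the array's 75th percentile (y axis) of Trim63, Bnip3, Cblb, and Mt2 against the skeletal muscle marker score (mean log2 difference of 16 markers from control, x axis), with 1 point per array colored by group. The LFA and NTL arrays lie at scores of -0.67 or less, and the 4 NTL arrays have Trim63 values of 3.52 or less.

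Fiber length was compared within each material. Of the 10 members, 0 were called in LFA against SFA, where 1.25% of tested probes were called, and 0 in NTL against NTS, where 7.4% were (4.97% higher and 2.43% lower). NTL and NTS shared only slide 2, with 1 NTL array, and with slide as a block 2.14% of probes and 0 members were called in NTL against NTS. The members with unadjusted p under 0.05 were 1 in asbestos and 4 in nanotubes, against 12.1% and 24.6% of probes. Fbxo32 was lower with long fibers of both materials on every array, by -0.88 ± 0.28 in LFA against SFA (adjusted p = 0.182) and -0.75 ± 0.28 in NTL against NTS (adjusted p = 0.102). No overlap in that direction was found for 5.17% and 8.06% of tested probes, and in the other direction for 3.39% and 7.78%. In NTL against NTS, Trim63 (-0.96 ± 0.35), Bnip3 (-0.91 ± 0.33), and Cblb (0.99 ± 0.33) had limma adjusted p values of 0.103, 0.0957, and 0.0677. The groups did not overlap for Trim63 and Bnip3, but the margins were narrow. The highest NTL array read 3.52 against 3.53 in NTS 3 for Trim63, and 6.47 against 6.52 in NTS 3 for Bnip3. In LFA against SFA the changes of Trim63, Bnip3, and Cblb were -0.44 ± 0.35, -0.49 ± 0.33, and 0.10 ± 0.33. The test of the difference between the 2 length effects called 0 members and 0% of probes (largest difference in Cblb, -0.89 ± 0.46, adjusted p = 1 in limma), and it had 0 members and 3.41% of probes at an unadjusted p under 0.05. LFA and NTL did not differ by call in any member, with changes from -0.15 to 0.51 and 0% of probes called, and 0 members and 1.58% of probes at an unadjusted p under 0.05.

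The surrounding pathways were described with 108 genes in 7 lists, of which all but Lif were tested. In LFA 3 of them were called higher and 3 lower, and in NTL 4 higher and 7 lower, or 5.61% and 10.3% of those tested, against 3.68% and 6.4% of all probes. Their median change was -0.19 and -0.33, against -0.229 and -0.227 for all probes. In SFA and NTS 0 were called, with 6 and 8 at an unadjusted p under 0.05 (5.61% and 7.48%, against 2.28% and 3.41% of all probes).

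The genes called higher in both long-fiber groups were cytokine signals of wasting. Il6, the cytokine linked to cachexia, rose by 3.75 ± 0.51 in LFA (adjusted p = 0.000604) and 4.08 ± 0.51 in NTL (adjusted p = 0.000153), and Il1b rose by 3.79 ± 0.73 and 3.40 ± 0.73. Socs3, the feedback inhibitor of IL-6 signaling, rose by 1.59 ± 0.32 and 1.5 ± 0.32, and Tnf rose by 1.52 ± 0.43 in NTL (adjusted p = 0.0386), where its change in LFA was 1.09 ± 0.43 (adjusted p = 0.146). Of the 12 tested genes of this list 3 were called in LFA and 4 in NTL, with medians of 0.58 and 0.52. The macrophage score was higher on the same arrays, and its part was not tested beyond the counts of calls given below.

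The genes called lower in both groups were Ppargc1a, Pink1, and Gadd45g, each from a different list. Ppargc1a, the coactivator of mitochondrial biogenesis that opposes FoxO, fell by 1.67 ± 0.44 in LFA and 2.20 ± 0.44 in NTL. Pink1, the kinase that flags damaged mitochondria, fell by 1.13 ± 0.29 and 1.01 ± 0.29. Gadd45g, a relative of Gadd45a, fell by 1.17 ± 0.28 and 1.55 ± 0.28 (adjusted p = 0.0292 and 0.00266 in limma). In NTL, the insulin receptor substrate gene Irs2 (-1.58 ± 0.28), the FoxO target Pdk4 (-1.77 ± 0.38), the lysosome regulator Tfeb (-1.09 ± 0.30), and the glucocorticoid-induced Zbtb16 (-1.51 ± 0.37) fell as well. Their changes in LFA were -0.88, -0.71, -1.05, and -1.08 and did not pass, and the difference between LFA and NTL was called for none of them. These 4 genes and Tnf were named after their values were seen. The skeletal muscle score was lower on the same arrays (mean -1.04 in LFA and -1.31 in NTL). Its part was not tested for these genes beyond the counts of calls given below.

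Among the relatives of the members none was called against control apart from Gadd45g. Of the ligases and their kin, Cbl had changes of 0.64 ± 0.90 in LFA and 1.33 ± 0.90 in NTL and Fbxo30 of -0.45 ± 0.22 and -0.51 ± 0.22. The 21 genes of the ubiquitin ligase and proteasome list had 0 calls in either group, with 5 and 8 at an unadjusted p under 0.05 (23.8% and 38.1%, against 22.8% of all probes in both) and medians of -0.37 and -0.47. Foxo4 was dim and variable, at -3.96 ± 1.55 (SD, n = 4) in control and -2.30 ± 0.50 in NTS, and was lower in NTL than in NTS by -2.71 ± 0.79 (adjusted p = 0.04). Bnip3l, the closest relative of Bnip3, changed by 0.25 ± 0.36 and -0.10 ± 0.36. The myostatin antagonist Fst (0.40 ± 0.56 and 0.23 ± 0.56) and the activin receptor gene Acvr2b (-0.37 ± 0.40 and -0.64 ± 0.40) did not pass, and the 15 genes of the myostatin, activin, and SMAD list had 0 calls in LFA and NTL, with 4 (26.7%) at an unadjusted p under 0.05 in each, near the share of all probes. Of the glucocorticoid-induced genes, Tsc22d3 changed by -0.84 ± 0.34 and -1.09 ± 0.34 (adjusted p = 0.153 and 0.0579) and Fkbp5 by 0.20 ± 0.56 and -0.37 ± 0.56. Gadd45b changed by 0.30 ± 0.29 and 0.54 ± 0.29 and Ddit4l by -0.31 ± 0.40 and -0.67 ± 0.40.

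**Figure D5:**
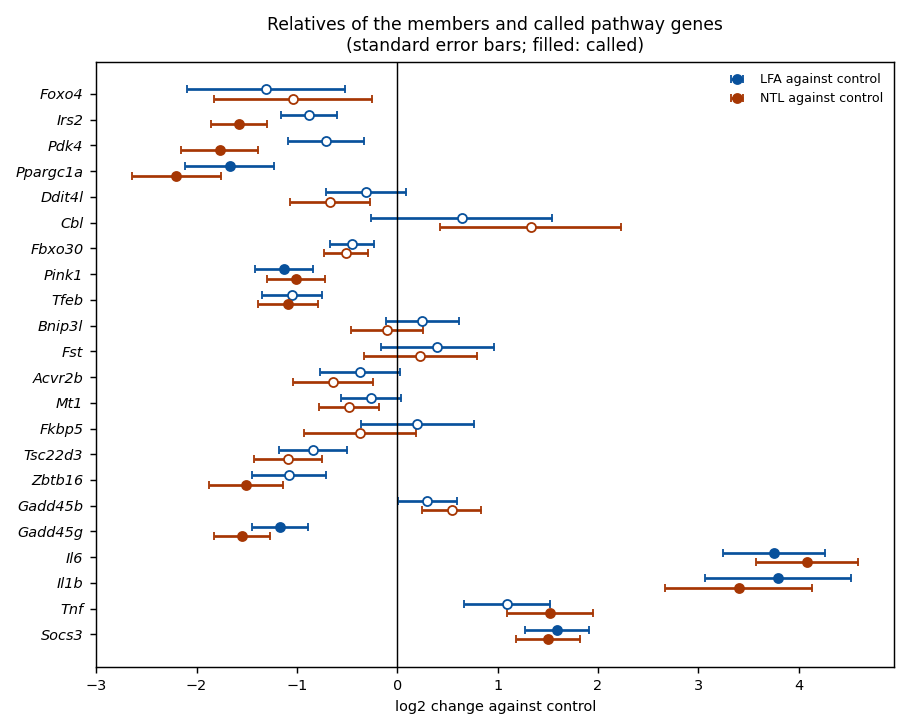
Log2 change against control (x axis) with standard errors for relatives of the members and called pathway genes (y axis) in LFA (blue) and NTL (brown), filled where called. Il6 and Il1b lie above 3 in both groups, and Ppargc1a lies at -1.67 and -2.20.

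The genes whose levels ran most like each member over the 20 arrays were found among 18659 genes by Pearson's r, as a description in which the points share groups, slides, and array quality. For Trim63 they were Lmod3 (0.913), Fam57b (0.911), and Diablo (0.909), and for Bnip3 Got1 (0.978), Ndufaf1 (0.972), and Mrpl45 (0.969). For Fbxo32 they were Napepld (0.855), Ppp2r2b (0.842), and Stxbp6 (0.835), and for Foxo1 Fa2h (0.874), Ltbp4 (0.832), and 9130017K11Rik (0.828). Mstn ran most like Ube2d3 (0.948), Arfgef1 (0.917), and Rg9mtd1 (0.914), and Foxo3 like Prkd3 (0.938), Bmp2 (0.937), and Mctp2 (0.932). Cblb ran most like Dync2h1 (0.928), Tsga14 (0.925), and Rpgrip1l (0.918), and Gadd45a like Dll1 (0.951), Drg1 (0.939), and Zfp410 (0.924). Ddit4 had the lowest likeness, to Slc12a4 (0.812), Tead2 (0.722), and Ndrg1 (0.72), and Mt2 was nearest to Pip5k1a (0.874), Hhat (0.854), and Pvrl2 (0.849).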

How the data were processed

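RNA from the frozen part of each diaphragm was hybridized to 1-color Agilent arrays. The authors deposited the scanner output (Agilent Feature Extraction 10.7.3.1), whose processed signal is a background-subtracted intensity, and a table of log2 values normalized in GeneSpring that holds only group means. These means served as an alternative, and over all probes their changes differed from those computed here by a median of 0.00054 to 0.00383.

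Outlier spots (92 to 204 per array) were dropped, spots of a probe averaged, and log2 intensity set relative to the 75th percentile of the array's noncontrol probes. The precision is limited by the number of arrays. Probes well above background on at least 4 of 20 arrays were tested with R 4.3.3 and limma 3.58.1 (lmFit and eBayes, 1 mean per group, all arrays, Benjamini-Hochberg adjustment). A call needed an adjusted p under 0.05 and a log2 change of at least 1. The scripts were tested on simulated data. Promoters were searched and figures drawn with Python 3.11.15, pandas 2.3.3, and matplotlib 3.10.9.

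The members and gene lists were chosen with earlier results of these data known. The genes named were all members, 12 relatives fixed by name, pathway genes called in both LFA and NTL, and the 3 genes most like each member. Lists of skeletal muscle, macrophage, lymphocyte, mesothelial, fibroblast, endothelial, adipocyte, and liver markers were scored on each array. Groups came from the sample labels, which number the replicates without saying which animal each came from, so p-values measure the spread between these samples.

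Alternatives were quantile normalization, normexp background correction with an offset of 50, no filter, a filter on all 20 arrays, outlier spots kept, all probes of a gene averaged, only the groups compared, slide, scan day, or replicate number as a block, each array left out, and the methods' test, which allows unequal variances. A percentile over spots, the muscle score as the reference, and the 5' to 3' index, liver score, or macrophage score as a covariate were added after the data were seen.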

Additional observations from a re-analysis of the deposited data

Results flagged for a closer look

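Of 80 sets of 4 arrays, 1 for each probe and group, 6 held an array whose gap to its nearest neighbor was more than 0.829 of the range of the group. Chance alone flags about 1 in 20 sets. For the Trim63 3' probe, NTL 3 was the highest of its group, at 3.52 against 3.28 for the next array (gap over range 0.918). For the Trim63 5' probe, control 2 was the lowest of its group at 0.72 against 3.21 (0.886), and LFA 3 was the lowest at -0.42 against 1.33 (0.891). Both arrays were among the 5 with the lowest 5' to 3' index. For Foxo3 (A_55_P2129309), NTL 2 was the highest at -1.38 against -2.63 (0.904), and NTL 2 was also among those 5 arrays. For Mstn, control 2 was the lowest at -0.37 against 0.05 (0.967), and for the second Foxo1 probe (A_52_P453884), control 4 was the lowest at 2.15 against 2.47 (0.885). The part of the index in these values was not tested.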

How the results depend on the processing

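The call of Trim63 in NTL held in 13 of the 15 alternatives that give a p and without each of the 20 arrays (adjusted p 0.00288 to 0.0193). The call in LFA was lost in 10 of those 15 alternatives and in 15 of the 20 fits without 1 array (adjusted p 0.0327 to 0.13), and it held without SFA 2 or any 1 of the NTS arrays. The number of members called in LFA was 0 under quantile normalization, no filter, slide, scan day, or replicate block, only the groups compared, the mean over probes, and the liver or macrophage score as a covariate. It was 2 relative to the muscle score (Cblb and Mt2, higher) and 2 with the 5' to 3' index (Trim63 and Bnip3). In NTL it was 2 (Trim63 and Bnip3) under normexp, a filter on all 20 arrays, the percentile over spots, and the index, 3 relative to the muscle score, and 0 with the macrophage score. In NTL against NTS it was 1 under quantile normalization (Cblb) and 1 with the index (Bnip3). Relative to the muscle score it was 4, all higher (Foxo1, Cblb, Ddit4, and Mt2). On that scale 28.1% of all tested probes were called higher in NTL against NTS, and 0.0975% lower. Over the 4 fiber groups the number of members called was 0 under quantile normalization, slide, scan day, or replicate block, the mean over probes, and the macrophage score. It was 2 relative to the muscle score or with the index. Without 1 array the counts were 0 to 1 in LFA, 1 to 2 in NTL (2 without LFA 2, LFA 3, NTL 2, or NTS 4), 0 to 2 in NTL against NTS (Trim63 and Cblb, without NTS 4), and 0 to 1 over the fiber groups (0 without any 1 of the NTL arrays or control 1, 2, or 3).

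Pathway genes called in LFA, 6 as reported, were 13 with the index, 26 relative to the muscle score, 0 with the macrophage score, and 3 to 9 without 1 array (3 without LFA 1, 2, or 4). In NTL, 11 as reported, they were 7 with slide and 7 with scan day as a block, 18 with the index, 43 relative to the muscle score, 0 with the macrophage score, and 7 to 15 without 1 array (7 without NTL 1 or 4). Calls over all tested probes moved in the same way under the index and both scores. In LFA, 1360 as reported, they were 2588 with the index and 8173 relative to the muscle score. In NTL, 2362 as reported, they were 4118 and 15192. With the macrophage score they were 0 in both groups. The macrophage scores of LFA and NTL do not overlap control, so that score and the group cannot be told apart.

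Of 80 member changes, 19 had an unadjusted p under 0.05. Relative to the muscle score the sign turned for Bnip3 in LFA (0.30), NTL (0.22), and NTL against NTS (0.14), Ddit4 in LFA (0.36), Fbxo32 in NTL (0.58) and NTL against NTS (0.31), Foxo1 in LFA (0.41) and NTL (0.56), and Trim63 in NTL against NTS (0.10). With the macrophage score it turned for Cblb in NTL against NTS (-0.27). Of the other 61 changes, 44 took the other sign under at least 1 alternative, and 36 did so when the muscle score, a reference that moved the median of all probes to 0.81 in LFA and 1.08 in NTL, was left aside.

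Over all probes, the 1360 calls in LFA became 564 with only the groups compared, 888 with no filter, and 862 with slide as a block. The 2362 calls in NTL became 1264 with slide and 1139 with scan day, and the 2733 in NTL against NTS became 790 and 916. Leaving out 1 array gave 486 (LFA 2), 591 (control 1), 606 (LFA 4), 794 (control 4), and 2315 (NTS 4) in LFA, and 1361 (NTL 4) and 1505 (NTL 1) in NTL. In NTL against NTS it gave 1635 (NTL 2), 1799 (NTL 4), 1804 (NTS 3), and 5184 (NTS 4), and the 463 calls in LFA against SFA became 178 (LFA 2), 189 (SFA 2), 203 (LFA 4), and 248 (SFA 3). Under quantile normalization 983 of 1295 calls in LFA were higher, against 846 of 1360, and 1558 of 2156 in NTL, against 1353 of 2362. By the methods' test 4320 probes and 2 members passed unadjusted, and 999 probes and 1 member (Trim63) after Benjamini-Hochberg.

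Same-numbered arrays of different groups did not deviate together (median correlation -0.0912, range -0.676 to 0.689), so the numbers give no pairing. With the replicate block the change of Trim63 was -1.29 in LFA (adjusted p = 0.0647 in limma) and -1.79 in NTL (adjusted p = 0.0111). The dim probes of Foxo3 and Cblb were not well above background on all arrays, which limits their values.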
